A study of Brassica carinata x Brassica rapa with 9 samples.

Results

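Developing anthers were compared with young leaves of a synthetic Brassica allohexaploid across every gene of the deposited table, 100804 genes in 3 Anther and 3 Leaf libraries of the 9 sequenced. The other 3 libraries, from Ovule, entered the shared estimate of the spread between libraries. They also entered the filter that set which genes were tested and the factors used for rescaling. The members of the comparison are all genes of the table, and the subgenome of each was read from the prefix of its identifier (Bra, BniB and Bol mark the A-, B- and C-genome). All libraries come from plants labelled AABBCC, from a cross of B. carinata (B- and C-genomes) and B. rapa (A-genome), with no treatment named. Anther covers stages from meiosis to pollen maturation and Leaf is young leaf. The paper gives B. carinata as the mother, whereas the labels give it as the male parent. Each library is bulk tissue, so fewer cells of a type and less RNA per cell cannot be told apart.

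In an anther, meiocytes recombine their chromosomes and become microspores, while the tapetum, the innermost layer of the anther wall, feeds them and makes the sporopollenin of the pollen wall. Meiocytes, tapetum and pollen each express many genes that are little used in vegetative organs. A young leaf devotes much of its messenger RNA to a small number of abundant photosynthesis transcripts. In an allohexaploid, most of these genes exist as related copies on the A-, B- and C-genomes.

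The values were FPKM, which are reads divided by gene length and by the total of the library. Reads on genes numbered 15077657 to 15527303 in the Anther libraries and 8675687 to 10154191 in the Leaf libraries, and 1 read on a gene of 1000 bases was worth 0.0643 to 0.0662 FPKM in Anther and 0.0984 to 0.115 in Leaf. Low genes therefore rested on fewer reads in Leaf. The paper also reports that a much smaller share of clean reads mapped to the reference genomes in Leaf than in Anther. The part of depth and of mapping in the results below was not tested. The paper describes the libraries of a tissue as biological replicates, but the labels name no separate plants, so p-values measure the spread between these libraries. The Leaf libraries lay very close together, with a median SD of 0.0413 on the log2 scale among genes above 100 FPKM, against 0.314 in Anther. Anther replicate 2 stood apart from replicates 1 and 3 in many genes, among them those of male development, as described below. Anther was checked against tapetum and meiosis genes, which were present, but those genes had been picked on these libraries. Leaf could not be checked, because none of the identifiers used here was paired with the name of a photosynthesis gene.

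More genes were higher in Anther than were lower, in every subgenome. Of 75038 genes tested, 28784 were called higher in Anther (38.4%) and 12670 lower (16.9%), together 55.2%, called in limma where the fold change reached 2 and the adjusted p was 0.05 or less. The median log2 fold change of all tested genes was 0.66, so the centre of the distribution lay toward Anther. After each library was divided by its median-of-ratios factor, which centres the middle of the genes above 0 in all libraries, that median was 0.18. On the rescaled values 20199 genes were called higher (26.9%) and 16974 lower (22.6%), together 49.5%. The share of calls that lay toward Anther was thus 69.4% on FPKM and 54.3% after rescaling. Rescaling removed 8585 calls of higher and added 4304 calls of lower. All 12670 genes called lower on FPKM were called lower after rescaling too, and no call changed direction. Both follow from the factors and are a description. The factors were 1.05 to 1.11 in Anther and 0.757 to 0.764 in Leaf, so dividing by them moved fold changes toward Leaf.

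**Figure D1:**
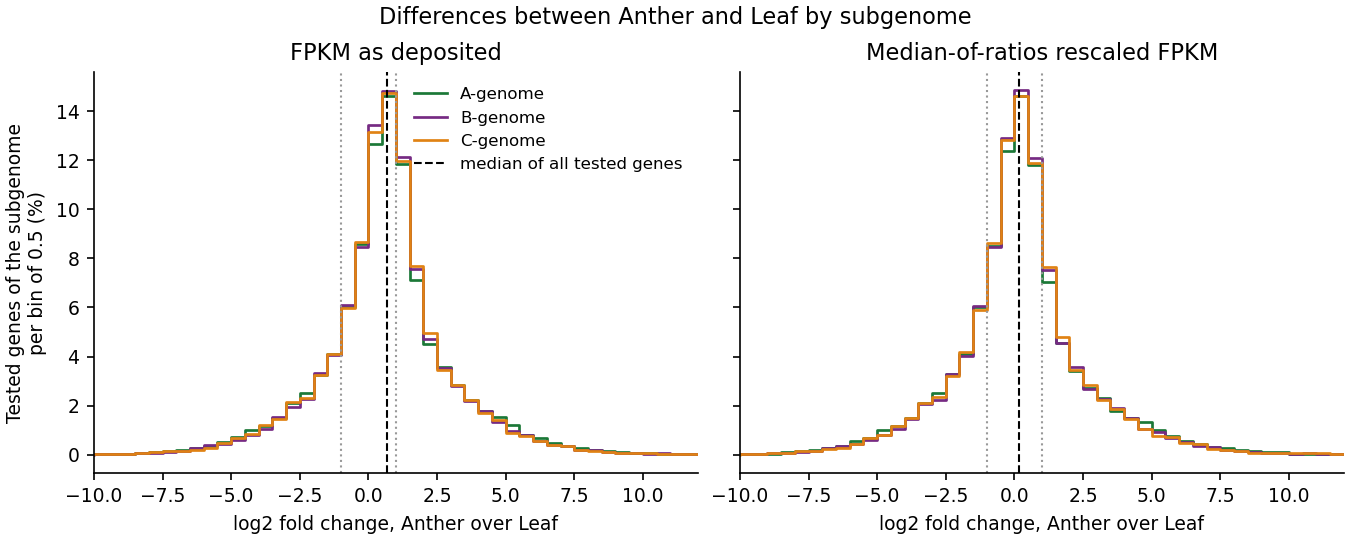
The log2 fold change of Anther over Leaf (x axis) is drawn against the percentage of tested genes of a subgenome in each bin of 0.5 (y axis), for the A-, B- and C-genome, on FPKM as deposited (left) and after median-of-ratios rescaling (right). Dotted lines mark 2-fold either way and the dashed line marks the median of all tested genes, 0.66 on the left and 0.18 on the right, and the 3 curves lie almost on each other. Values beyond the ends of the axis are not drawn.

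Large differences were common in both directions. Among genes called higher, 13557 (47.1%) differed by 2- to 4-fold, 9770 by 4- to 16-fold, 3733 by 16- to 64-fold and 1724 (5.99%) by 64-fold or more in the fitted values. Among genes called lower, the same bands held 5014 (39.6%), 5268, 1780 and 608 genes. The median log2 fold change was 2.11 among calls of higher and -2.36 among calls of lower. After rescaling the order of the sizes turned, with a median of 2.43 for higher and -2.31 for lower, and the band from 2- to 4-fold held 7916 genes called higher and 6973 called lower. The largest fitted folds rest on genes with no read at all in the other tissue, where the pseudocount of 0.1 sets the value. Such genes made up 4401 of the calls of higher and 574 of the calls of lower. When they were set to the bound that a floor of 3 reads per library allows, 1023 genes were at 64-fold or more toward Anther and 527 toward Leaf, and the median log2 difference was 1.95 for higher and 2.30 for lower. Of the genes called higher, 748 then fell under 2-fold, and of those called lower, 69.

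Replicates kept most calls apart. The lowest library of the higher tissue lay above the highest library of the other in 97.8% of the genes called higher and 98.9% of those called lower, against 52.7% of all tested genes with every Anther library above every Leaf library and 23.2% with every one below. The lowest library of the higher tissue was also compared with the highest of the other, with the pseudocount added to both values. It was at least 2 times as high in 65.9% of the higher and 76.0% of the lower calls. These genes had been called for a 2-fold difference, and no share over all tested genes is given beside them. Both percentages are therefore a description. Among all genes called higher, Anther replicate 2 lay over 2-fold below both other Anther libraries in 2404. For replicates 1 and 3 that number was 396 and 282. Replicate 2 lay over 2-fold above both others in 554 genes, against 791 for replicate 1 and 113 for replicate 3. When each library was left out in turn, 24664 (85.7%) of the higher and 11223 (88.6%) of the lower calls were made every time. A stricter core of 15483 higher and 8254 lower genes was called under rescaling, voom on recovered reads, limma treat, a pseudocount of 1, Leaf counted as 1 sample and every left-out library.

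Of the 33584 genes not called, 15129 (45.0%) had a 95% interval of the fold change that lay within 2-fold either way. That share was 9.39% in genes with a mean of up to 1 FPKM and 65.6% in genes above 100 FPKM. For the other genes not called, a difference of 2-fold was neither shown nor shown to be absent.

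The direction of the difference turned with abundance. Genes were classed by their mean over the 6 libraries. Up to 1 FPKM, 41.5% of 11388 tested genes were called higher in Anther and 15.7% lower, and from 1 to 10 FPKM the shares were 41.1% and 14.5% of 42860 genes. From 10 to 100 FPKM they were 31.4% and 20.8% of 19371 genes. Above 100 FPKM, 355 of 1419 genes were higher and 646 (45.5%) lower, so the most abundant class was the only class of the 4 with more genes called lower. The median log2 fold change went from 0.90 in the lowest class through 0.74 and 0.44 to -0.41 in the highest. After rescaling, the class from 10 to 100 FPKM also held more genes called lower (29.0%) than higher (17.5%), and the class above 100 FPKM held 15.8% higher and 52.8% lower, with a median of -1.30.

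**Figure D2:**
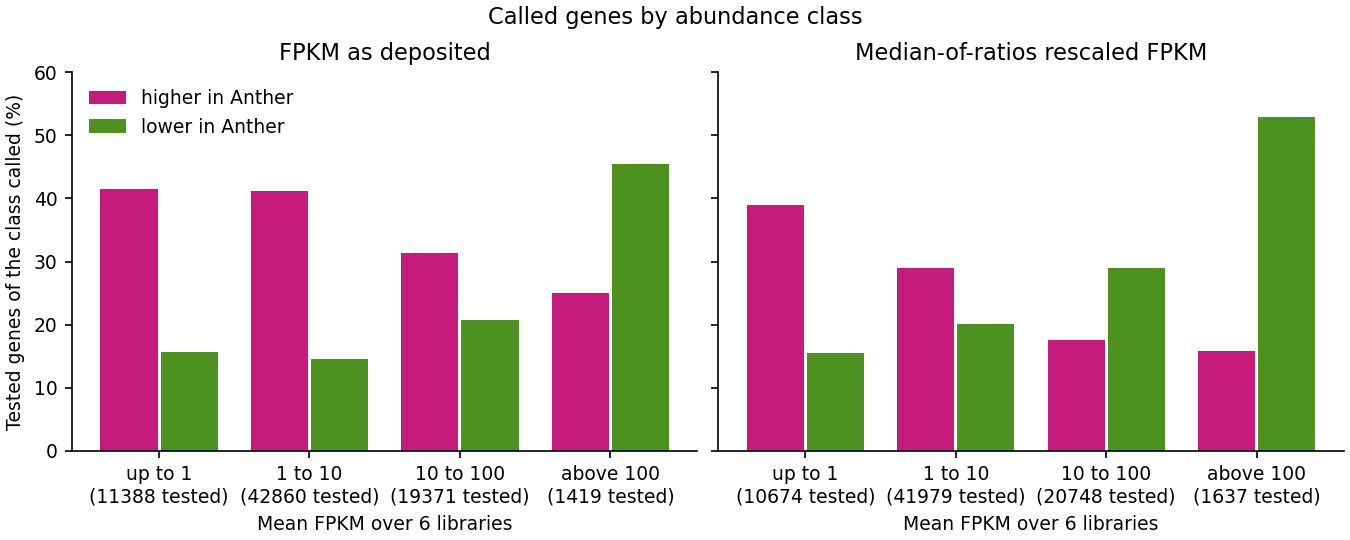
Bars give the percentage of the tested genes of each abundance class (mean FPKM over the 3 Anther and 3 Leaf libraries, x axis) that were called higher or lower in Anther, on FPKM as deposited (left) and after median-of-ratios rescaling (right). In the class above 100 FPKM the bar for lower stands at 45.5% on the left and 52.8% on the right, above the bar for higher in both.

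Differences were largest in the class above 100 FPKM, but size did not rise with abundance below it. The median size of the log2 fold change among called genes was 2.51 up to 1 FPKM, 2.13 from 1 to 10 FPKM, 1.96 from 10 to 100 FPKM and 3.55 above 100 FPKM. Of the genes called higher above 100 FPKM, 54.9% differed by 16-fold or more, and of those called lower, 34.5%. The corresponding shares were 19.1% and 19.4% from 10 to 100 FPKM, 21.8% and 21.3% from 1 to 10 FPKM, and 5.56% and 3.58% up to 1 FPKM. In the class up to 1 FPKM, the pseudocount keeps fitted folds from going far above 16-fold. The shares of that class therefore cannot be compared with those of the other classes, and its median size is limited in the same way.

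Placing each gene in a class for each tissue showed where it moved. Of all 100804 genes, 49692 (49.3%) lay in the same class in both tissues, 32337 were a single class higher in Anther and 11329 a single class lower. A further 5954 genes lay at least 2 classes higher in Anther and 1492 at least 2 classes lower. Of the 1472 genes with a mean above 100 FPKM in Leaf, 387 were above 100 FPKM in Anther, 827 were from 10 to 100 FPKM, 199 from 1 to 10 FPKM, 53 above 0 to 1 FPKM and 6 had no read. The 1325 genes above 100 FPKM in Anther included 183 with no read in Leaf and 71 more at up to 1 FPKM there. Genes abundant in Leaf were thus mostly still read in Anther.

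**Figure D3:**
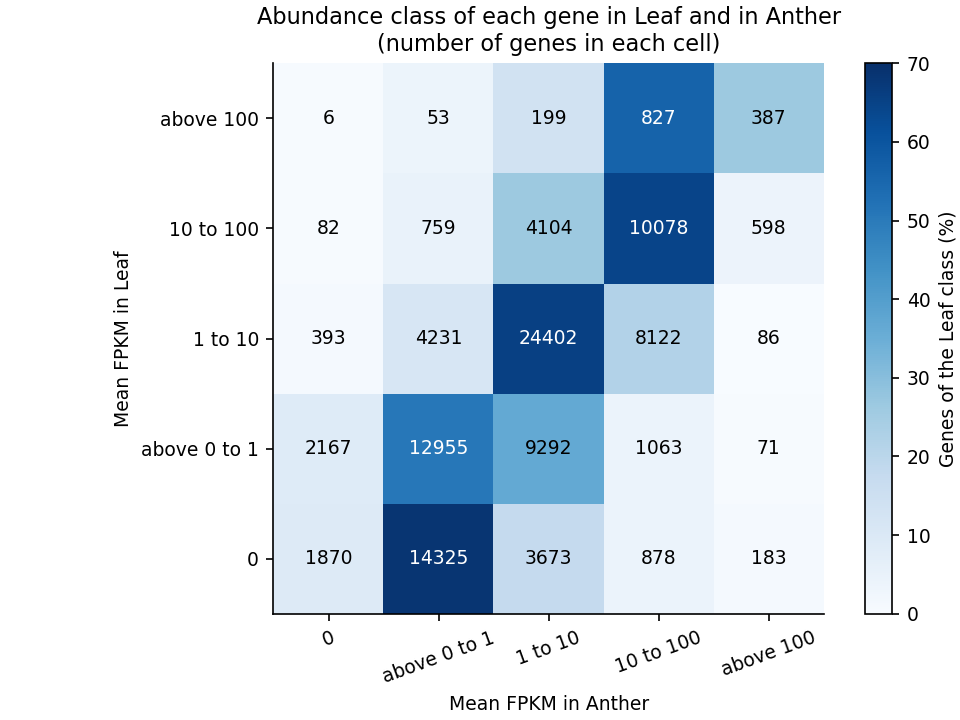
Each cell gives the number of genes by mean FPKM class in Leaf (y axis) and in Anther (x axis), over all 100804 genes, and its shade gives the percentage of the Leaf class. Of the genes above 100 FPKM in Leaf, 827 sit from 10 to 100 FPKM in Anther and 387 stay above 100 FPKM, while 183 genes above 100 FPKM in Anther sit in the Leaf class of 0.

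Genes read in a single tissue were more often Anther genes. With no read in any Leaf library, 4734 genes had a mean above 1 FPKM in Anther, 1061 above 10 FPKM, 183 above 100 FPKM and 24 above 1000 FPKM. With no read in any Anther library, 481 genes had a mean above 1 FPKM in Leaf, 88 above 10 FPKM, 6 above 100 FPKM and 0 above 1000 FPKM. Of the 24 genes above 1000 FPKM in Anther, 12 were A-genome, 5 B-genome and 7 C-genome genes. Among the 4734 genes above 1 FPKM, the split was 1801, 1716 and 1217. All tested genes were 35.3% A-genome, 35.9% B-genome and 28.8% C-genome. A gene with no read may still be expressed below the limit that a count of 0 allows, which is 3 reads per library, and that limit was higher in FPKM in the shallower Leaf libraries.

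The 2 tissues spread their transcripts over different numbers of genes. The most abundant genes that together held 50% of the summed FPKM numbered 4570, 3971 and 3915 in Anther replicates 1, 2 and 3, and 1399, 1426 and 1419 in Leaf. The groups did not overlap, with a mean of 4152 ± 363 (SD, n = 3) in Anther and 1415 ± 14 (SD, n = 3) in Leaf, and the two-sided exact permutation test gave p = 0.1, the smallest that 3 against 3 libraries allow. The 1000 genes of highest FPKM in a library took 30.0% ± 1.02 of its sum in Anther and 45.8% ± 0.108 in Leaf (SD, n = 3), and the 100 highest 13.5% ± 0.798 and 22.1% ± 0.0635. Without the 10 most abundant genes of each library, 50% was held by 4841 ± 337 genes in Anther and 1941 ± 15.9 in Leaf (SD, n = 3).

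The called genes held most of both pools. Genes called higher took 53.7%, 50.5% and 51.6% of summed FPKM in Anther replicates 1, 2 and 3 and 7.95% ± 0.0204 in Leaf (SD, n = 3). Genes called lower took 60.6% ± 0.0286 of summed FPKM in Leaf (SD, n = 3) and 6.80%, 8.76% and 8.77% in the Anther libraries. These shares follow from the calls and are a description. The 12670 genes called lower thus made up the larger part of the Leaf pool.

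Few of the most abundant genes were common to both tissues. Of the 1000 genes of highest mean FPKM in each, 229 (22.9%) were in both lists, and of the 100 highest, 11. In the Anther list of 1000, 228 genes had up to 1 FPKM in Leaf and 166 had no Leaf read. In the Leaf list of 1000, 36 genes had up to 1 FPKM in Anther and 3 had no Anther read. Of the 10 most abundant genes in Anther 7 had no read in Leaf, whereas the 10 most abundant in Leaf all had reads in Anther, with means of 51.6 to 597 FPKM. Those 10 Leaf genes held 8.34% to 8.39% of the summed FPKM of Leaf libraries and 0.171%, 0.478% and 0.418% in Anther replicates 1, 2 and 3.

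The 2 genes with the largest difference in mean FPKM each way had no names in the sources used here, so their roles are not given. Bra029135 (A-genome) stood at 9247, 17301 and 9646 FPKM in Anther replicates 1, 2 and 3 and had no read in Leaf. It was at least 9671-fold higher in Anther, taking 3 reads in each Leaf library as the floor. Replicate 2 was the highest Anther library for this gene.

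Bra009282 (A-genome) stood at 8847, 4901 and 8047 FPKM in Anther and had no read in Leaf, at least 6646-fold higher in Anther, with replicate 2 the lowest here. Bra029135 held 0.878%, 1.57% and 0.905% of the summed FPKM of the Anther libraries and Bra009282 held 0.840%, 0.445% and 0.755%.

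The gene with the largest fall, BniB020266 (B-genome), stood at 16318, 16134 and 16088 FPKM in Leaf and at 63.8, 987 and 740 FPKM in Anther replicates 1, 2 and 3. Its log2 fold change was -5.49 (SE 0.87, limma adjusted p = 0.00031), and Anther replicate 1 lay far under the other Anther libraries. BniB044096 (B-genome) fell from 12644, 12486 and 12615 FPKM in Leaf to 390, 637 and 611 FPKM in Anther, a log2 fold change of -4.56 (SE 0.27, limma adjusted p = 5.8e-07). Both B-genome genes stayed well above 0 in every Anther library, unlike the A-genome pair in Leaf.

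By number of calls, the subgenomes were much alike. Of the tested genes, 38.4% of the A-genome, 38.4% of the B-genome and 38.3% of the C-genome were called higher in Anther, and 17.4%, 16.5% and 16.7% were called lower. After rescaling, the shares were 27.0%, 26.9% and 26.8% for higher and 23.2%, 22.2% and 22.4% for lower. The median log2 fold change was 0.65, 0.67 and 0.66 in the A-, B- and C-genome. The core called under every setting listed above held 20.8%, 20.4% and 20.6% of the tested genes toward Anther and 11.5%, 10.5% and 10.9% toward Leaf. No test between subgenomes was made on these shares, since genes are not replicates and homoeologous copies are related.

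The subgenomes differed most in the class above 100 FPKM, where 50.7% of 406 B-genome genes were called lower in Anther, against 43.2% of 563 A-genome and 43.8% of 450 C-genome genes. The median log2 fold change of this class was -1.11 in the B-genome, -0.20 in the A-genome and -0.26 in the C-genome. In the class from 10 to 100 FPKM, 20.4%, 21.6% and 20.4% of the A-, B- and C-genome genes were called lower.

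Shares of summed FPKM differed between the tissues by small amounts. The A-genome held 38.6%, 38.9% and 38.9% in the Anther libraries and 37.2%, 37.1% and 37.1% in the Leaf libraries, a difference of 1.60 percentage points. The B-genome held 31.4%, 31.5% and 31.9% in Anther and 32.9%, 32.9% and 32.9% in Leaf, a difference of -1.34 points. The C-genome differed by -0.26 points, with overlapping libraries. The two-sided exact permutation tests gave p = 0.1, 0.1 and 0.4, or 0.15, 0.15 and 0.4 adjusted over the 3 subgenomes, so none reached the threshold, which 3 against 3 libraries cannot reach.

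A few genes carried these differences. Without the most abundant gene of each tissue (Bra029135 and BniB020266), the A-genome difference was 0.40 points and the B-genome difference -0.07 points. Without 2 genes of each tissue, the 4 genes described above, the A-genome lay 0.43 points lower in Anther and the B-genome 0.87 points higher, so both differences changed direction. Without 5 genes of each tissue the largest difference was in the C-genome, 1.43 points higher in Anther. Without 100 genes of each tissue (189 genes in all), the differences were 0.22, -0.29 and 0.07 points. On summed log2(FPKM + 1), where abundant genes weigh less, they were -0.14, 0.25 and -0.10 points.

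**Figure D4:**
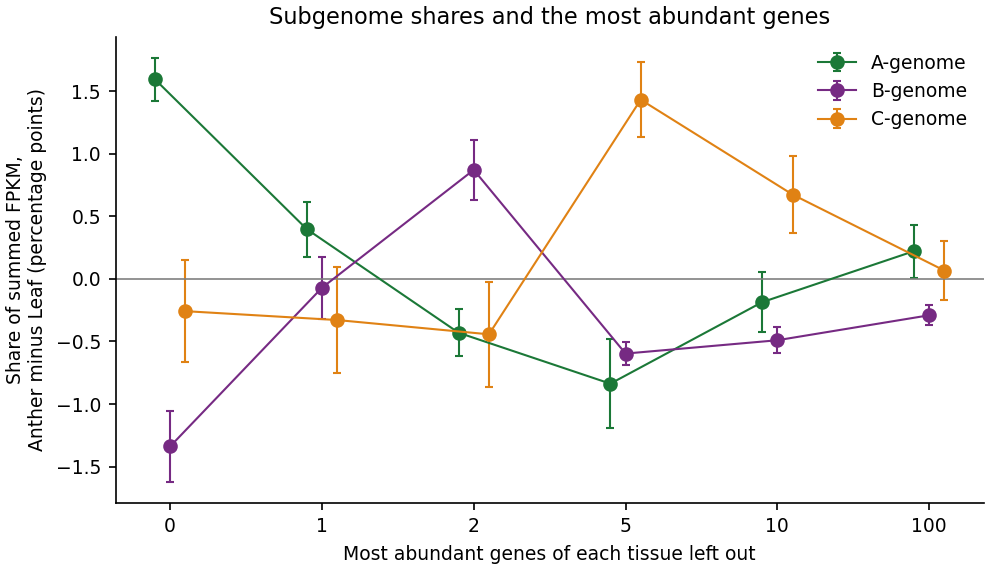
Points give the share of summed FPKM in Anther minus that in Leaf (percentage points, means of 3 libraries each) for the A-, B- and C-genome, as the 0, 1, 2, 5, 10 or 100 most abundant genes of each tissue are left out (x axis, not to scale). Error bars are the root of the summed squared SDs of the Anther and Leaf libraries. The A-genome moves from 1.60 points with no gene left out to -0.43 points without 2 genes of each tissue, and the B-genome from -1.34 to 0.87 points.

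Within classes, the share differed most among abundant genes. In the class above 100 FPKM the A-genome held 42.5% ± 0.216 of summed FPKM in Anther and 36.7% ± 0.0953 in Leaf, and the B-genome 28.1% ± 1.07 and 33.2% ± 0.0563 (SD, n = 3; exact permutation p = 0.1 for each). This class includes the few genes that carried the differences above, and its shares were not computed without them. In the classes from 1 to 10 and from 10 to 100 FPKM, the subgenome shares differed by 0.239 points at most.

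Genes called lower had shorter coding lengths. On FPKM, recovered lengths had a median of 1056 bases over all tested genes, 1089 in genes called higher and 963 in genes called lower. Genes not called had a median of 1068 bases. Among differences of 16-fold or more, the medians were 939 bases for higher and 804 bases for lower. The order of higher above lower was the same in the A-, B- and C-genome, at 1110 and 978, 1122 and 990, and 1023 and 912 bases. After rescaling, the medians were 1065 bases for higher, 996 for lower and 1086 for genes not called. Genes called higher were thus longer than genes not called on FPKM and shorter after rescaling.

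Genes of male development and of meiosis were higher in Anther throughout. The 106 genes with names come from lists that the study chose on these same libraries, so their direction is not independent evidence, and the roles given for them are known from Arabidopsis. All 51 genes of the male list and all 37 meiosis genes were called higher in Anther on FPKM and after rescaling, beside 38.4% and 26.9% of all tested genes. Every Anther library lay above every Leaf library for all 88, beside 52.7% of all tested genes. Of the male genes, 37 had no read in Leaf and 45 had up to 3 reads over the 3 Leaf libraries. The median log2 fold change of the male list was 10.69 in the fitted values and 9.77 with genes of no Leaf read at their bound, against 0.66 over all tested genes. For the meiosis list it was 4.19, or 4.10 with bounds.

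**Figure D5:**
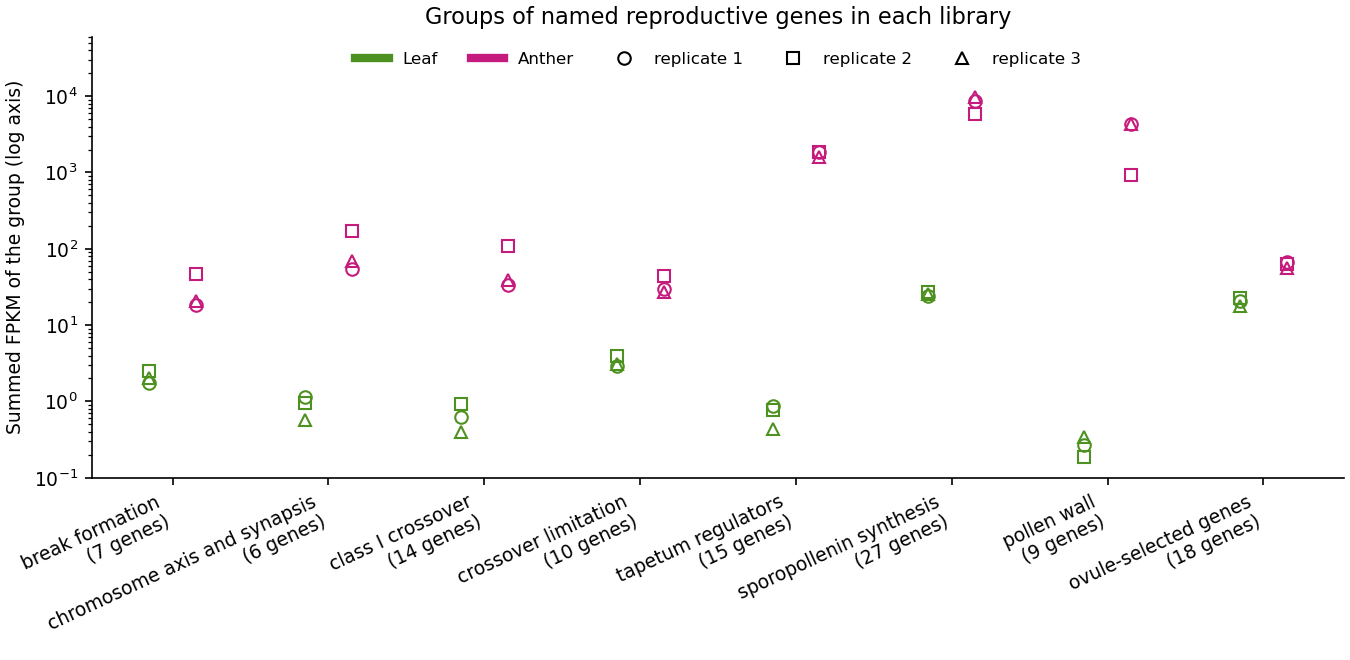
Each point is the summed FPKM of a group of named genes in a single library (y axis, log scale), for Leaf and Anther, with the marker giving the replicate. The pollen wall genes stand at 934 FPKM in Anther replicate 2 and at 4296 and 4370 FPKM in replicates 1 and 3, whereas replicate 2 is the highest Anther library in all 4 meiosis groups.

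Regulators of the tapetum were nearly absent from Leaf. The 15 genes of this group summed to 1851, 1874 and 1592 FPKM in Anther replicates 1, 2 and 3 and to 0.869, 0.779 and 0.431 FPKM in Leaf. The Anther libraries lay close together for this group, and none was near a Leaf library. AMS, a transcription factor needed for the tapetum and for pollen wall genes, had 6 copies at Anther means of 115 to 344 FPKM, 5 of them with no Leaf read.

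The AMS copy Bol042692 stood at 341, 421 and 270.0 FPKM in Anther and was at least 1847-fold higher than in Leaf. MYB80, a transcription factor acting with AMS in the tapetum, had 6 copies at Anther means of 43.3 to 119 FPKM and no read in Leaf for any. TDF1, which acts upstream of AMS, was less abundant and not quite absent from Leaf.

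The TDF1 copy Bra025337 stood at 32.3, 55.9 and 26.7 FPKM in Anther and at 0.709, 0.711 and 0.322 FPKM in Leaf, a log2 fold change of 5.81 (SE 0.36, limma adjusted p = 7.8e-07). Replicate 2 was the highest Anther library for all 3 copies of TDF1.

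Enzymes of sporopollenin synthesis were the most abundant named group in both tissues. Their 27 genes summed to 8588, 5765 and 9755 FPKM in Anther and to 24.3, 26.8 and 25.5 FPKM in Leaf, and replicate 2 was the lowest Anther library in 23 of the 27. CYP703A2 and CYP704B1 hydroxylate fatty acids for sporopollenin, ACOS5 activates them as CoA esters, LAP5 and LAP6 are polyketide synthases, and TKPR1 and TKPR2 reduce the polyketides. All 7 enzymes had every copy called higher.

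The CYP703A2 copy Bol040704 stood at 497, 76.0 and 476 FPKM in Anther with no Leaf read, at least 1701-fold higher. The ACOS5 copy BniB001185 stood at 613, 517 and 621 FPKM, at least 2983-fold higher. Replicate 2 was thus much lower than the others for the hydroxylase and close to them for the synthetase.

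The Leaf level of the group came mostly from 3 genes. TKPR2 copies BniB031910 and Bol024018 stood at 9.68, 11.7 and 11.7 FPKM and at 11.1, 11.4 and 10.1 FPKM in Leaf, and the TKPR1 copy BniB015834 at 3.29, 3.58 and 3.49 FPKM. Their log2 fold changes were 5.16 (SE 0.14, limma adjusted p = 1.4e-08), 5.31 (SE 0.21, limma adjusted p = 5.9e-08) and 8.02 (SE 0.18, limma adjusted p = 5.2e-09). The other TKPR2 copies, Bra004316 and Bra008822, had no Leaf read, so the 4 copies named for this gene differed in their Leaf level. These A-genome copies were also lower in Anther, with means of 21.7 and 107 FPKM, against 401 for BniB031910 and 448 for Bol024018. With a single copy each from the B- and C-genome, subgenome and individual copy cannot be told apart. Reads of near-identical copies can be split between them in counting, which makes the level of a single copy uncertain.

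The pollen wall group holds MS2, a fatty acyl reductase of the tapetum, and ABCG26, a transporter that exports wall precursors. Its 9 genes summed to 4296, 934 and 4370 FPKM in Anther and to 0.266, 0.187 and 0.338 FPKM in Leaf. The whole Leaf value came from the MS2 copy Bol007277. Anther replicate 2 was the lowest Anther library for all 9 genes.

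The MS2 copy Bol007277 stood at 623, 109 and 703 FPKM in Anther and at 0.266, 0.187 and 0.338 FPKM in Leaf, a log2 fold change of 9.99 (SE 1.28, limma adjusted p = 7.9e-05). The ABCG26 copy Bol015793 stood at 719, 252 and 559 FPKM in Anther with no Leaf read, at least 3281-fold higher. Without Anther replicate 2, every gene of the male list was still called higher. Together the 51 male genes held 1.22% of summed FPKM in Anther and 0.00229% in Leaf.

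Meiosis genes were far less abundant in Anther, with gene means of 0.974 to 31.6 FPKM. Here Anther replicate 2 was the highest library in 35 of 37 genes, while it was the lowest in 36 of the 51 male genes. Within the male list, replicate 2 was the highest Anther library in 8 of the 15 tapetum regulators and the lowest in 4. The same counts over all tested genes are not given. In most genes of the 2 lists, the libraries of Anther thus differed from each other in opposite ways. The share of each stage or cell type in a library was not measured, and its part in this was not tested.

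Genes of the chromosome axis and synapsis had the highest levels. Their 6 genes summed to 55.1, 170 and 69.8 FPKM in Anther and to 1.14, 0.951 and 0.569 FPKM in Leaf. ASY1, a protein of the meiotic chromosome axis, had the highest single copies, and ZYP1a encodes a protein of the synaptonemal complex.

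The ASY1 copy Bra004222 stood at 15.4, 57.3 and 22.3 FPKM in Anther and at 0.164, 0.0640 and 0 FPKM in Leaf, a log2 fold change of 7.38 (SE 0.50, limma adjusted p = 1.3e-06). Its B-genome copy BniB009412 stood at 14.9, 39.3 and 17.7 FPKM against 0.320, 0.312 and 0.339 FPKM, a log2 fold change of 5.69 (SE 0.32, limma adjusted p = 4.5e-07). The Anther and Leaf libraries did not overlap for either copy.

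Genes of the class I crossover pathway, which makes most crossovers, summed to 33.2, 108 and 39.5 FPKM in Anther and to 0.626, 0.915 and 0.398 FPKM in Leaf over 14 genes. HEI10, a ligase that marks crossover sites, had 7 copies, 5 of them with no Leaf read. The HEI10 copy Bra039674 stood at 2.92, 13.5 and 4.57 FPKM in Anther and was at least 23.2-fold higher than in Leaf.

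Double-strand break formation, which starts recombination, was represented by 7 genes that summed to 18.5, 47.1 and 20.4 FPKM in Anther and to 1.74, 2.48 and 2.03 FPKM in Leaf. SPO11-1, the protein that cuts the DNA, stood at 1.79, 4.52 and 1.23 FPKM in Anther in its copy BniB034973, with a single read in Leaf. Of PRD3, needed for these breaks, the copy Bra024921 had the highest Leaf level in the group, at 0.955, 1.49 and 1.13 FPKM against 2.87, 8.0 and 3.05 FPKM in Anther. Its log2 fold change of 1.73 (SE 0.37, limma adjusted p = 0.0021) was the smallest of the group, and its call was lost with voom (1.29, adjusted p = 0.056) and with limma treat (adjusted p = 0.1). Anther replicate 2 carried much of this value: without it the log2 fold change was 1.27 on FPKM, still called, and 0.80 after rescaling (limma adjusted p = 0.022), under 2-fold and no longer called.

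Genes that limit crossovers had the smallest contrast of the meiosis groups by summed level. The 10 genes summed to 29.5, 44.2 and 26.9 FPKM in Anther and to 2.93, 3.96 and 3.10 FPKM in Leaf. FANCM and RECQ4A, helicases that unwind recombination intermediates, and RMI1 and TOP3a, their partners, act in DNA repair outside meiosis too. The RECQ4A copy Bol022020 stood at 2.18, 2.07 and 2.31 FPKM in Anther and at 0.526, 0.680 and 0.586 FPKM in Leaf, a log2 fold change of 1.72 (SE 0.21, limma adjusted p = 5.4e-05), the smallest of all 37 genes. At a pseudocount of 1 it was 0.996, just under 2-fold, and the call was lost. For this copy the 3 Anther libraries lay close together.

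Genes that the study listed for female development were higher in Anther than in Leaf in part. Of 18 genes 12 were called higher on FPKM, beside 38.4% of all tested genes, and 9 after rescaling, beside 26.9%, while 0 were called lower on either scale. For the list, the median log2 fold change was 1.52 on FPKM and 1.02 after rescaling, against 0.66 and 0.18 over all tested genes. The genes summed to 66.2, 62.8 and 55.5 FPKM in Anther and to 20.4, 22.9 and 17.6 FPKM in Leaf. All 5 copies of NACK1, a kinesin of cell division, were called higher on both scales.

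The NACK1 copy Bol030782 stood at 1.82, 2.24 and 2.11 FPKM in Anther and at 0.0673, 0.118 and 0.0357 FPKM in Leaf, a log2 fold change of 3.66 (SE 0.27, limma adjusted p = 2.3e-06). TUBG1, a gamma-tubulin of microtubule nucleation, stood at 6.64, 7.87 and 7.37 FPKM against 1.45, 2.27 and 1.17 FPKM in its copy Bra007622. The libraries did not overlap for either gene.

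RanGAP1, which activates the GTPase Ran, varied among its copies. The copy Bra040432 stood at 7.13, 6.29 and 4.79 FPKM in Anther and at 0.733, 0.715 and 0.389 FPKM in Leaf, a log2 fold change of 3.14 (SE 0.24, limma adjusted p = 2.9e-06). The copy Bra007730, also of the A-genome, had a log2 fold change of 0.94 (SE 0.21, limma adjusted p = 0.0025), just under 2-fold, at 3.84, 5.06 and 5.68 FPKM in Anther and 2.02, 3.15 and 2.34 FPKM in Leaf. Both were above Leaf in every Anther library.

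AMP1, a carboxypeptidase in plant development, differed between copies as well. The A-genome copy Bra014794 had a log2 fold change of 2.21 (SE 0.32, limma adjusted p = 0.00018), while the B-genome copy BniB007415 stood at 0.937, 1.42 and 0.979 FPKM in Anther and 0.703, 1.04 and 0.546 FPKM in Leaf, with overlapping libraries and a log2 fold change of 0.51 (SE 0.31, limma adjusted p = 0.17). The difference between the copies was not tested.

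In this list 3 calls, of Bol020456 (AUX1, an auxin importer), Bra036475 (NOP10, of ribosomal RNA modification) and Bol045717 (RanGAP1), were lost on rescaling. On FPKM their log2 fold changes were 1.05, 1.24 and 1.14, and after rescaling 0.63, 0.74 and 0.64. The call of AUX1 was also lost (0.78 to 1.08) when Leaf replicate 1 or Leaf replicate 3 or any Anther replicate was left out, and that of NOP10 when Anther replicate 1 (0.98) or Leaf replicate 3 (0.98) was left out. The RanGAP1 copy Bra007730 was called higher without Anther replicate 1 (1.09) and without Leaf replicate 2 (1.11).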

How the data were processed

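RNA-Seq libraries of Leaf, Anther and Ovule (3 each) were used. FPKM was calculated and deposited by the authors. They aligned reads with HISAT2 2.1.0 to the B. rapa, B. nigra and B. oleracea genomes, counted them with HTSeq 0.6.0 and stated no scaling of the FPKM between libraries. For its own calls the paper used DESeq2 at the same fold and adjusted p thresholds, and those calls were not compared here. The labels also name StringTie 1.3.2. In 100% of the 100804 genes all values were multiples of a whole read (tolerance 0.01 read), which gave reads and coding lengths. A gene read in a single library meets this whatever its value. In simulated libraries, exact reads were recovered for 98.2% of genes. Genes that reached 0.5 FPKM in 3 or more libraries were tested on log2(FPKM + 0.1) with limma 3.58.1 (R 4.3.3), in 1 model over 9 libraries with an eBayes trend and Benjamini-Hochberg adjustment. Fold changes are on that scale, which understates low genes. Rescaling divided FPKM by median-of-ratios factors over genes above 0 in all libraries. Single values were compared by two-sided exact permutation. Python 3.11.15 was used with scipy 1.17.1, numpy 2.4.6, pandas 2.3.3 and matplotlib 3.10.9. Named genes were those the paper identifies in its lists and, each way, the 2 called genes with the largest difference of mean FPKM and no overlap between libraries. The members and lists were chosen with earlier results of these data known. Alternatives were other pseudocounts, filters, scaling, weights, thresholds, a replicate block and left-out libraries. Counting was not stated to use strand. The result of 1 gene of the lists is not reported here. The methods were tested on simulated data.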

Additional observations from a re-analysis of the deposited data

How the results depend on the processing

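The counts of 28784 genes higher and 12670 lower stayed within 1.5 times in every setting but 2: higher genes numbered 18114 under limma treat and 18505 under limma voom on recovered reads, and otherwise 19610 to 34586. Lower genes numbered 8919 (treat) to 17123 (voom). The share of calls toward Anther (69.4%) was 51.9% with voom, 54.3% after rescaling, and, chosen after seeing the data, 53.8% after rescaling with the Anther and Leaf libraries alone and 54.5% after rescaling without Anther replicate 2. Settings with libraries left out kept the filter of all 9 libraries, and the rescaled settings kept their factors. Leaving out Ovule therefore changed the spread but no fold change. Leaving out 1 library gave 27917 to 28682 higher, 12355 to 12578 lower and shares of 68.9% to 69.7%. The causes were not tested. Correlations of deviations between Anther and Leaf libraries of the same replicate number were -0.0040, -0.0050 and -0.0014. The Leaf libraries lay very close together, so these values cannot show whether the numbers pair the libraries. A replicate block gave 28801 higher and 12663 lower. The subgenome differences in points changed direction on summed log2(FPKM + 1) (A-genome -0.14, B-genome 0.25) and, chosen after seeing the data, without 2 genes of each tissue (A-genome -0.43, B-genome 0.87) and without 10 (A-genome -0.19, C-genome 0.68); the C-genome was 0.068 without 100. Of the named genes, 32 of 37 meiosis, 50 of 51 male and 10 of 18 female-list genes were tested and kept their call in every setting, and 2 of the meiosis genes were not tested under the filter of 1 FPKM. Genes not called that changed sign were BniB038334 (-0.087 by voom, -0.045 rescaled, -0.045 rescaled with Anther and Leaf alone), BniB000251 (-0.11, -0.10 and -0.10, and -0.22 rescaled without Anther replicate 2) and BniB007415 (-0.11 rescaled without Anther replicate 2). Genes up to 1 FPKM rested on a median of 5.5 reads per library, and the part of depth in the results was not tested.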
